A study of Mus musculus with 2 samples.

Results

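The genes described here encode the machinery that carries, docks and fuses secretory vesicles: Rab GTPases, synaptotagmins and synaptotagmin-like proteins, syntaxins and other SNAREs, their binding proteins, the priming and active zone factors of the Rims, Unc13 and Cadps families with Rimbp2, the granule membrane proteins Ptprn and Ptprn2, and the calcium-binding protein Scgn. They were chosen by a rule on gene symbols, with earlier results of these data known. The rule gave 132 of the 49997 genes in the RefSeq annotation of GRCm38.p6. Of these, 130 were protein-coding and 2 were the pseudogenes Vamp7-ps and Stxbp3-ps. DNA methylation had been compared by whole-genome bisulfite sequencing, which reads methylated cytosines as those that bisulfite leaves unconverted, between 2 libraries from the mouse pancreas at E14.5. One was made from null cells, Ngn3 eGFP/eGFP, and the other from heterozygous cells, Ngn3 eGFP/+. Both were sorted for the eGFP reporter at the Ngn3 locus, and both genotypes carry at least 1 reporter allele in place of a wild-type one. Ngn3 (current symbol Neurog3) is the transcription factor that starts endocrine differentiation. The labels call the null cells endocrine progenitors and the heterozygous cells islet progenitors, from a mixed strain that was mostly ICR with C57Bl/6 and 129svev.

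The table analysed names the genes nearest to differentially methylated regions, in a list for regions of higher methylation in null cells (the higher list) and a list for regions of lower methylation in null cells (the lower list). It gives no methylation level, position, region count or coverage, so a gene is either named or not, and no value per library is given. With 1 library per genotype there is no replicate check and no p-value. The effect of genotype and any shift in the cells that the sort collects cannot be told apart, and the identity of the cells could not be checked against markers because the table does not measure expression. The labels state about 400000000 reads for each library.

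In endocrine cells, peptide hormones leave in dense-core granules. Rab3 and Rab27 proteins recruit granules to the cell surface, where a vesicle SNARE of the VAMP family pairs with a syntaxin and a SNAP-25-type SNARE. Munc13 and CAPS proteins prime this complex, synaptotagmins trigger fusion when calcium enters, and Rim proteins hold granules near calcium channels. The same protein families also run traffic between the endoplasmic reticulum, Golgi, endosomes and lysosomes in every cell, so each family mixes secretory and housekeeping members.

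The higher list named 25 of the 132 genes and the lower list named none. The protein-coding members in the higher list made up 19.2% of 130 (exact Clopper-Pearson 95% interval 12.8 to 27.1%), against 12.1% of all 21887 protein-coding genes. These genes are long, and long genes are named more often. When the share of all genes in each of 10 length classes was weighted by the number of members in that class, the background became 16.0%, which lies inside the interval. The interval treats genes as independent draws and covers counting error only. For the lower list the background was 1.51%, a share at which 1.97 of the 130 would be named. The interval for 0 of 132 reached 2.76%, so a deficit there was not detectable with this number of genes.

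**Figure D1:**
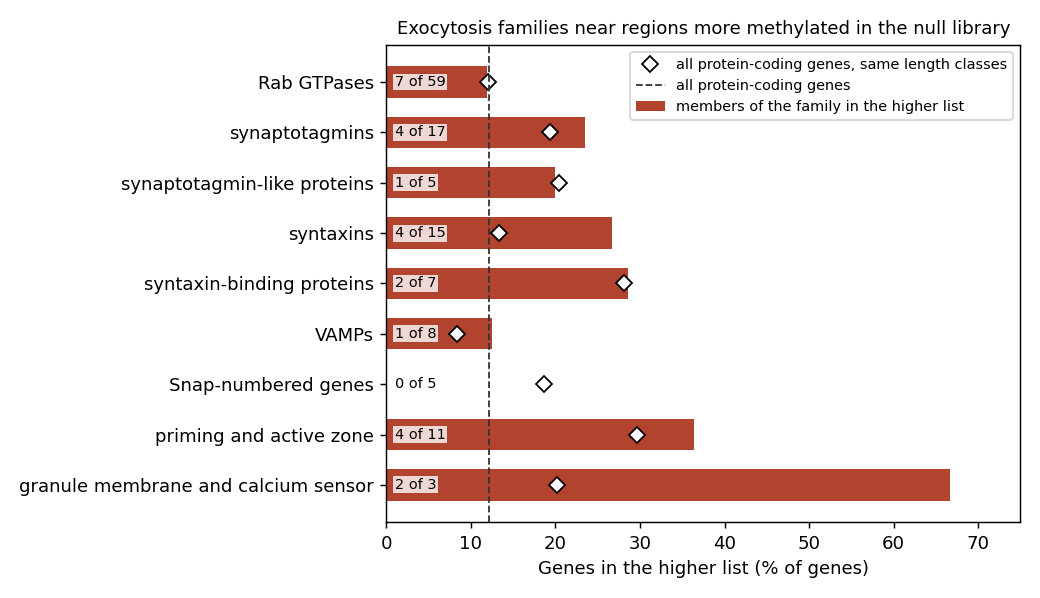
Share of each gene family (% of its protein-coding genes, horizontal axis) in the higher list, with the count in each bar; the dashed line is the 12.1% of all protein-coding genes and each diamond the share of all genes in the same length classes. The Rab GTPases sit on the background, the syntaxins reach 26.7% against a diamond at 13.3%, and the Snap-numbered genes are at 0 of 5.

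Methylation in mammals falls mostly on CpG, and CpG-dense promoters are usually unmethylated. To show how far named members differ in this, the promoters of 4 of them from different families are printed with each CpG in capitals. The sequences are the 250 bases up to the RefSeq transcript start, in GRCm38.p6, 5′ to 3′ on the strand of the gene. They were taken from the 7 named members whose transcript start lay within 25 bases of the annotated 5′ end of the gene: Ptprn2 with the highest and Syt1 with the lowest ratio of observed to expected CpG in the RefSeq window (0.746 and 0.332), then the granule docking gene Rab27a and the active zone gene Rims1. The table does not say whether any listed region lies in them.
Ptprn2 (chr12:116485470-116485719, + strand): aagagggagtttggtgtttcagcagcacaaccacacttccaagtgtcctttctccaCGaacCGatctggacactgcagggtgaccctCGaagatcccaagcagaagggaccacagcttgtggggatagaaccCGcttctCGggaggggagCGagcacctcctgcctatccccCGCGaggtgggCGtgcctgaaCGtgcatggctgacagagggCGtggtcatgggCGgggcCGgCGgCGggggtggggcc
Syt1 (chr10:109010976-109011225, - strand): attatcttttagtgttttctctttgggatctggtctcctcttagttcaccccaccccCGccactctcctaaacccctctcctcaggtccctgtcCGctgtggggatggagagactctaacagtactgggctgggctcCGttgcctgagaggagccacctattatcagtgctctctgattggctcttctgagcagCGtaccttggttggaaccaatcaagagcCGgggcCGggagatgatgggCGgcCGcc
Rab27a (chr9:73044560-73044809, + strand): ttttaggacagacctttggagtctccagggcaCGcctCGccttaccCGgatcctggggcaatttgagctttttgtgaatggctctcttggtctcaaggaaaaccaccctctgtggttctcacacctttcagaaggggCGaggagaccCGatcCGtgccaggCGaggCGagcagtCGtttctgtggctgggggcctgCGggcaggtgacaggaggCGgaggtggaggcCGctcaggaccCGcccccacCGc
Rims1 (chr1:22806159-22806408, - strand): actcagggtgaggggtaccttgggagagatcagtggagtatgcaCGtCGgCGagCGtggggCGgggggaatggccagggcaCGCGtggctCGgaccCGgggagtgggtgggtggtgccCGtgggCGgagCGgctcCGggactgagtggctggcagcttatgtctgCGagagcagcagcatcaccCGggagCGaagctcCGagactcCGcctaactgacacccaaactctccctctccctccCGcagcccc
The printed stretch held 15 CpG in Ptprn2, 8 in Syt1, 14 in Rab27a and 19 in Rims1. That of Syt1, the sparsest of the 4, belongs to the longest synaptotagmin gene named.

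Rab GTPases, the small switches that give each vesicle its identity, were named at the background rate. Of 59 genes, 7 were in the higher list, or 11.9%, against 12.0% of all genes in the same length classes. Among the secretory Rabs, Rab3c (chromosome 13, 110054187 to 110280996, 227 kb) was the only one of 4 Rab3 genes to be named. Rab3 proteins ride on secretory vesicles and bind Rim. Rab3a at 3.91 kb, Rab3b at 64.3 kb and Rab3d at 10.7 kb were in neither list, so the named gene was the longest of the group. Rab27a (chromosome 9, 73044810 to 73097623, 52.8 kb), which docks granules and is mutated in ashen mice, was named. Its paralog Rab27b was not, although at 163 kb it is the longer.

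The other named Rabs work mostly away from the granule. Rab11a (chromosome 9, 64715300 to 64737756, 22.5 kb) directs recycling endosomes, and its paralog Rab11b of 18.0 kb was not named. Rab6b (chromosome 9, 103111667 to 103185276, 73.6 kb) is the brain-enriched form of a Golgi Rab whose common form, Rab6a, was not named. Rab12 (chromosome 17, 66494512 to 66519750) and Rab20 (chromosome 8, 11453390 to 11478640) act on endosomal and phagosomal traffic. Rab44 (chromosome 17, 29114128 to 29148980) encodes a large Rab with added domains. The 52 Rabs in neither list included the early endosome Rabs Rab5a, Rab5b and Rab5c, the late endosome Rab Rab7 and the exocytic Rabs Rab8a, Rab10 and Rab37, which were picked out after the table had been seen.

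Synaptotagmins, vesicle proteins whose C2 domains bind calcium and membrane in many members, had 4 of 17 genes in the higher list, 23.5% against 19.4% of all genes of like length. Syt1 (chromosome 10, 108497650 to 109010980, 513 kb) and Syt2 (chromosome 1, 134646534 to 134753149, 107 kb) are the closely related sensors of fast transmitter release, and both were named. Syt7 (chromosome 19, 10388802 to 10453181, 64.4 kb), a slower and more calcium-sensitive protein that takes part in insulin and glucagon release, was named as well. Syt16 (chromosome 12, 73997624 to 74267916, 270 kb) is an atypical member thought not to bind calcium. Syt9, another sensor found in insulin-secreting cells, was in neither list at 178 kb. The median length was 188 kb for the 4 named genes and 31.2 kb for the 13 others.

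Synaptotagmin-like proteins tether granules by binding Rab27. The higher list named 1 of the 5 genes, Sytl3 (chromosome 17, 6658133 to 6738070, 79.9 kb), beside 20.4% of all genes of like length, which also comes to about 1 of 5, and Sytl4, the granuphilin of beta cell granules, was not. Sytl4 lies on the X chromosome. Other Rab27 effectors stood beside Sytl3: of 11 genes that encode Rab27-binding proteins (Sytl1 to Sytl5, Rph3a, Rph3al, Mlph, Myrip, Exph5 and Unc13d), 4 were in the higher list, namely Sytl3, Rph3al, Myrip and Exph5. That is 36.4%, against 22.1% of all genes in the same length classes. This grouping was made after the table had been seen.

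Syntaxins, the target-membrane SNAREs, were named in 4 of 15 cases, 26.7% against 13.3% of all genes of like length. All 4 belong to internal membranes. Stx6 (chromosome 1, 155158628 to 155207567) and Stx16 (chromosome 2, 174076260 to 174099771) serve the trans-Golgi network and endosomes. Stx8 (chromosome 11, 67966411 to 68207148, 241 kb) acts on late endosomes, and Stx18 (chromosome 5, 38036729 to 38137770, 101 kb) on the endoplasmic reticulum. Stx1a, Stx2, Stx3, Stx4a, Stx11 and Stx19, of the subfamily that acts mainly at the plasma membrane, were in neither list. Split in this way, after the table had been seen, 4 of 8 internal-membrane syntaxins were named, against 16.8% of all genes of like length, and 0 of these 6, against 9.51%. At 9.51%, fewer than 1 of 6 would be named.

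Of the core genes of regulated fusion, Stx1a, Snap25 and Vamp2, the trio that fuses insulin granules, were in neither list, nor was the priming gene Unc13a (Munc13-1). These 4 genes, grouped after the table had been seen, run from 3.85 kb for Vamp2 to 69.0 kb for Snap25. Of all genes in the same length classes 12.6% were in the higher list, so fewer than 1 of 4 would be named at that share. All 5 genes with a Snap number were absent from both lists, against 18.6% of all genes of like length. One of them, Snap91, encodes a clathrin adaptor and not a SNARE. The VAMP genes had 1 of 8 protein-coding genes named, 12.5% against 8.36% of all genes of like length. It was Vamp5 (chromosome 6, 72368049 to 72380468, 12.4 kb), a muscle-enriched VAMP and the shortest of all 25 named members. Vamp8, its neighbour across a gap of 4.75 kb and a SNARE of late endosomes and of exocrine granules, was not.

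Syntaxin-binding proteins had 2 of 7 protein-coding genes named, both modulators of fusion. Stxbp4 (chromosome 11, 90476492 to 90638136, 162 kb), also called Synip, binds syntaxin 4 and was described in the insulin-regulated traffic of glucose transporters. Stxbp6 (chromosome 12, 44852484 to 45075118, 223 kb), or amisyn, carries a VAMP-like SNARE motif and restrains fusion. Stxbp5 and Stxbp5l, the tomosyns with the same kind of motif, were not named, at 146 and 278 kb. The share of 28.6% stood beside 28.1% of all genes of like length.

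Priming and active zone genes were the longest family, with a median of 219 kb, and 4 of 11 were named, 36.4% against 29.7%. Cadps (chromosome 14, 12372560 to 12823339, 451 kb) encodes CAPS1, which primes dense-core granules. Its paralog Cadps2, at 578 kb the longest unnamed member of all, was in neither list. Rims1 (chromosome 1, 22285972 to 22806158, 520 kb) scaffolds release sites and binds Rab3. Rims4 (chromosome 2, 163859756 to 163918973, 59.2 kb) is a short form with only the terminal C2 domain, and was named too. Rims2, the main Rim of beta cells, was not, at 486 kb, and neither was Rims3. Rimbp2 (chromosome 5, 128757788 to 128953644, 196 kb) ties Rim to voltage-gated calcium channels. All 4 Unc13 genes were absent, including Unc13c of 529 kb, which was singled out after its length had been seen.

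Granule membrane and calcium sensor genes had 2 of 3 named, beside 20.2% of all genes of like length. Ptprn2 (chromosome 12, 116485695 to 117278167, 792 kb), or phogrin, is a receptor-type phosphatase homolog of the dense-core granule membrane and an autoantigen of type 1 diabetes in humans. It was the longest member of the set. Ptprn, its paralog IA-2 with the same location, was not named and spans 17.5 kb. Scgn (chromosome 13, 23953456 to 23991327, 37.9 kb) encodes secretagogin, an EF-hand calcium-binding protein of islet and neuroendocrine cells.

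**Figure D2:**
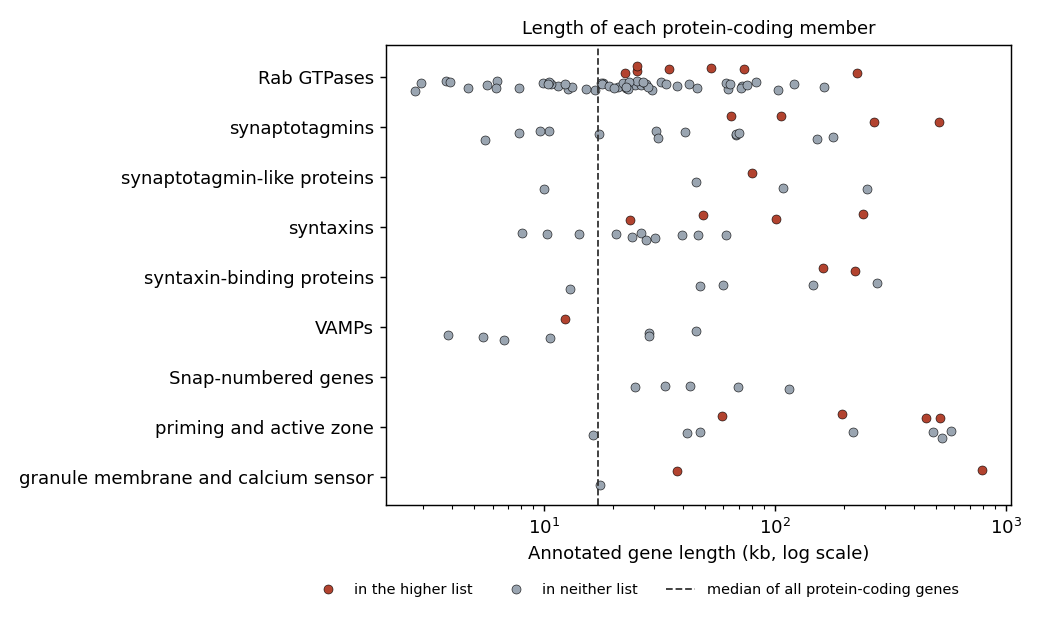
Annotated length (kb, log scale, horizontal axis) of each protein-coding member by family, in red for genes in the higher list and grey for genes in neither list; the dashed line is the 17.2 kb median of all protein-coding genes. All 25 named members lie at 12.4 kb or above, and 24 of them to the right of the line, while unnamed members spread over the whole range up to 578 kb.

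Length ordered the members as it ordered all genes. The 25 named members had a median length of 79.9 kb and the 105 unnamed protein-coding ones 26.4 kb. Over all protein-coding genes the median was 55.2 kb for those in the higher list and 15.3 kb for those outside it. In the longest class, genes of 109 kb or more, 10 of 22 members were named, 45.5% against 38.5% of all genes there. That class runs up to 2390 kb, and backgrounds from 10 classes do not match length within it. With 20 classes, 15 of these 22 members were in the longest, where 60.0% of members and 46.8% of all genes were named. Across the 3 classes below it, from 24.6 kb up, 12 of 57 members were named, 21.1% against 14.9%. In the 6 shorter classes the shares were 5.88% of 51 members and 6.28% of all genes. The 6.28% is not weighted by member lengths: the shortest class holds no member, and 1.92% of its genes were named. The named member was the longer or longest in Rab3, Rab6, Rab11 and Ptprn, but not in Rab27 or Cadps.

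**Figure D3:**
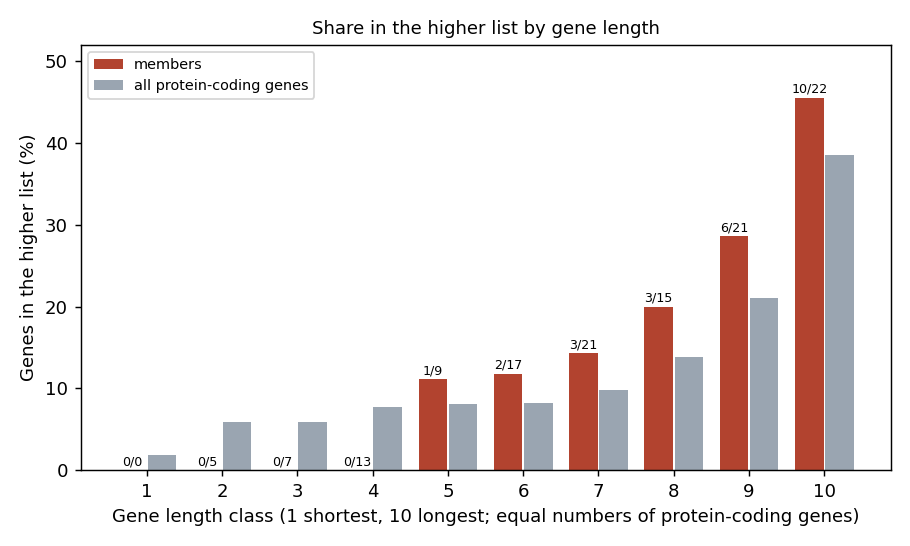
Share of genes in the higher list (%, vertical axis) for members (red, with counts) and for all protein-coding genes (grey) in 10 gene length classes of equal size. Both rise with length, to 45.5% and 38.5% in the longest class, and no member of the 4 shortest classes was named.

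Named members lay on 13 chromosomes, with at most 3 on any. None of the 7 X-linked members (Sytl4, Sytl5, Rab9, Rab9b, Rab33a, Rab39b and Vamp7) was named. The higher list held 2.69% of all X-linked protein-coding genes. Chromosome 7 holds 12 members, none in either list, and the higher list held 8.23% of all its protein-coding genes, a share at which about 1 of 12 would be named. Over all chromosomes, the share of genes in the same length classes as these 12 was higher, 14.8%. No member was named on chromosomes 3, 4, 15, 16 and 18 either, which hold 6, 9, 2, 3 and 3 members.

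Neighbouring genes were often named together. For the 25 named members, 20 of the 50 nearest flanking protein-coding genes were in the higher list as well, 40.0%, and 17 of the 25 had such a neighbour on at least one side. For the 105 unnamed members it was 19 of 209 flanks, 9.09%. The same held over all protein-coding genes, with 29.2% for flanks of genes in the higher list and 3860 of 38437 for flanks of the rest, so this pairing is general to the table. It includes Rab3c beside Pde4d, a cAMP phosphodiesterase gene, and Rims1 beside Kcnq5, a potassium channel gene. Rab11a lies between Megf11 and Dennd4a, both named, the second encoding a regulator of Rab10. Syt7 lies between Dagla and Lrrc10b, and Rab12 between Mtcl1 and Themis3. Stx8 is separated by 2.21 kb from Ntn1, the netrin gene, and Sytl3 by 0.06 kb from Ezr, so the nearest gene to a region there turns on a small shift in position.

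Flanking genes in the lower list numbered 4 of 50 beside named members and 1 of 209 beside unnamed ones. The lower list held 1.51% of all protein-coding genes, a share not matched for length or for lying beside a gene of the higher list. Pls3, next to Rab39b, was the case beside an unnamed member. Pawr, 83.3 kb from Syt1, and Vapb, 292 kb from Stx16, were in both lists. Nav3, 670 kb away on the other side of Syt1, and Ppp1r12b, 1.51 kb from Syt2, were in the lower list only. In 3 cases the higher list also named a gene that overlaps a named member: Gm5136 within Syt1, the long noncoding RNA gene Gm10421 within Ptprn2, and E230013L22Rik across the end of Rab20. The microRNA gene Mir6340, within Rab22a, was in the higher list although Rab22a itself was not. The genes on either side of Rab22a, Ankrd60 and 1700010B08Rik, were in the higher list as well. How many regions stand behind such pairs cannot be read from names.

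**Figure D4:**
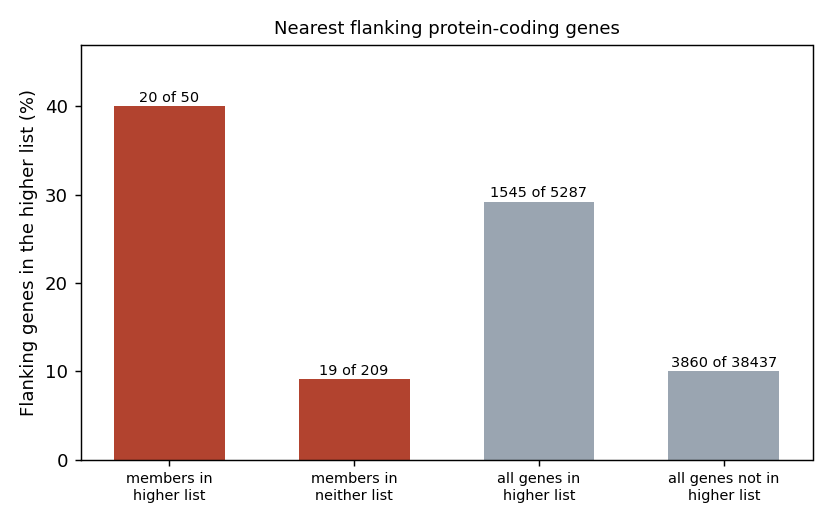
Share of the nearest flanking protein-coding genes that were in the higher list (%, vertical axis), with counts above the bars, for members (red) and all protein-coding genes (grey), each split by whether the gene itself was in that list. Flanks of named members reach 40.0% and those of unnamed members 9.09%, beside 29.2% and 3860 of 38437 over all genes.

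CpG content at the promoter overlapped between named and unnamed members. In windows of 300 bases (250 before and 50 after the transcript start), the ratio of observed to expected CpG had a median of 0.674 in 22 named members and 0.737 in 81 unnamed ones, and of 0.577 over all 17492 protein-coding genes with a window. A ratio of at least 0.6, called CpG-rich here, was found in 68.2% of named and 67.9% of unnamed members, against 48.4% of all genes. Over the 2070 protein-coding genes of the higher list with a window, the median was 0.705 and 61.1% were CpG-rich. At a stricter ratio of 0.75 the shares were 31.8% of named members, 45.7% of unnamed ones, 43.4% of those 2070 genes and 34.1% of all genes. Named members ran from 0.238 in Rimbp2, 0.316 in Sytl3 and 0.332 in Syt1 to 1.02 in Rab6b and 1.06 in Syt16, so both kinds of promoter were present. In 0 of 4 printed windows was there a match to CAGATG on either strand, an E-box form that neurogenic bHLH factors are known to prefer. That word occurred in 3 of the 22 named members (Rimbp2, Cadps and Vamp5), 13.6%, in 12.3% of the unnamed ones and in 14.9% of all windows.

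**Figure D5:**
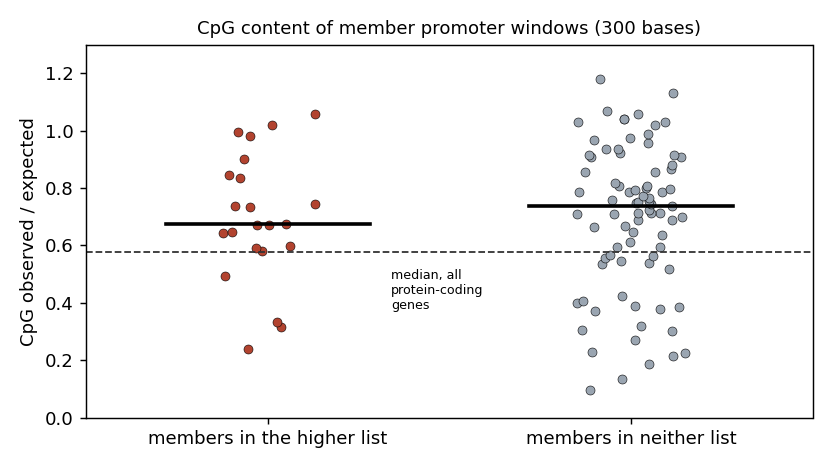
Ratio of observed to expected CpG (vertical axis) in the promoter window of each member with one, for 22 members in the higher list (red) and 81 in neither list (grey); bars are medians and the dashed line is the median of all protein-coding genes, 0.577. The 2 clouds overlap over nearly their whole range, with medians of 0.674 and 0.737.

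Partners of these families outside the symbol rule were named in both directions. Of 106 such genes in 5 lists, chosen with earlier results of these data known, the higher list held 19. That is 17.9%, beside 18.9% of all genes in the same length classes. The lower list held 4 of the 106, beside 2.34% of all genes in those classes. Rab effectors and active zone proteins had 6 of 21, 28.6% beside 21.2% of all genes of like length, among them Erc2 (an active zone scaffold, 856 kb), Bsn (bassoon), Rph3al (Noc2, a Rab3 and Rab27 effector of endocrine granules), Myrip (which links Rab27 to myosin) and Exph5. Rab regulators had 4 of 22, 18.2% beside 19.4% of all genes of like length. They were Tbc1d1 and Tbc1d30 of the Rab GTPase-activating family, and Rin3 and Rab3il1, which encode exchange factors. SNARE partners had 5 of 26, 19.2% beside 13.8%: the SNARE genes Vti1a, Ykt6 and Bet1, the complexin gene Cplx2 and Scfd2. Ykt6 was in the lower list too. The exocyst had 1 of 12, Exoc4 of 725 kb, or 8.33% beside 19.6%.

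Other calcium sensors and vesicle proteins were the group with most names in the lower list. Of 25, 3 were in the higher list, 12.0% beside 21.4% of all genes of like length. They were Dysf (dysferlin, a membrane repair protein), Sv2b (a vesicle glycoprotein) and Doc2b (a C2 domain sensor used in insulin release). Another 3 were in the lower list: Myof (myoferlin), Mctp1 and Mctp2, all encoding proteins with several C2 domains. At the background of 1.51%, or at the 2.67% of all genes of like length, fewer than 1 of 25 would be named there. Mctp1 spans 651 kb, Mctp2 229 kb and Myof 145 kb, all within the longest class, in which 4.89% of all genes were in the lower list.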

How the data were processed

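Whole-genome bisulfite libraries, 1 of null and 1 of heterozygous cells, were made from 75 ng of tagmented genomic DNA with 12 PCR cycles and read as 150 bp pairs, per the labels' protocols. Trim Galore and the builds mm10 and GRCm38 are named in the submitters' processing notes. The sources used here do not give the aligner, the region caller with its thresholds, or how a nearest gene was assigned. The table deposited by the authors and analysed here has gene names in 9 columns, which hold no measured quantity: per the file headers, column 1 names genes near lower and column 2 near higher methylation in null cells, and the 7 columns without a header carry on the alphabetical order of column 2.

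Ignoring case, names were matched to current symbols, gene IDs or unique older symbols of RefSeq, GRCm38.p6 (3145 of 3230 and 406 of 429 matched; the matching was tested on simulated data). Every one of the 25 members matched by current symbol. Backgrounds are protein-coding genes of the autosomes, X and Y. Coordinates are those of genes, 1-based, never of regions. Promoter windows are RefSeq's, 1 per gene, nearest to its annotated start; 103 of 130 protein-coding members had one. Python 3.11.15, pandas 2.3.3 and SciPy 1.17.1 were used. Every member in either list is named, with chosen paralogs; some genes that the rule takes are left out of the text. The members and lists were chosen with earlier results of these data known.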

Additional observations from a re-analysis of the deposited data

How the results depend on the processing

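The higher list held 25 members and the lower list 0 in every case tried, namely with current symbols only, protein-coding members only, autosomes only, genes named in both lists left out, or without Snap91. Of the corresponding shares, 18.9% was the lowest, and 25 of 125 on autosomes the highest. In the longest length class the named share of 45.5% became 37.2% with 5 classes, 60.0% with 20 classes and 38.9% when genes were classed by territory (the gene plus the gap to the midpoint with each neighbour, chosen after seeing the data), beside 29.7, 46.8 and 30.2% of all genes. The share of named members with a CpG-rich promoter moved to 31.8% at a ratio of at least 0.75. A stricter limit lowers every share, but the order changed too: all genes stood at 34.1% and unnamed members at 45.7%, and the cause was not tested. With the window of highest ratio per gene, also added later, the share of named members was 72.7%, beside 50.9% of all genes. Stricter minimum differences or coverage were not run, since the table holds no levels. No paired analysis was possible because there was only 1 library of each genotype. Among families of 3 to 17 genes, 1 gene moves the share by several percentage points in the largest and by far more in the smallest. Coverage, the number of regions and the size of each methylation difference are unknown.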

Other observations

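Further trafficking families, gathered by symbol after the table had been seen, were counted in the same way. Among Tbc1d genes, most of which encode GTPase-activating proteins for Rabs, the higher list held 7 of 30 and the lower list 0: Tbc1d5, Tbc1d22a, Tbc1d1, Tbc1d8, Tbc1d30, Tbc1d16 and Tbc1d2. Dennd genes, whose DENN domain proteins activate Rabs, had 3 of 16 (Dennd1a, Dennd4a and Dennd11) and 0. Sorting nexins, which act on endosomal membranes, had 8 of 30, among them Snx29, Snx24, Snx30 and Snx7, and 0. Vps genes, many of them for endosomal sorting complexes, had 4 of 35 and 1, Vps35l, in the lower list. Among motors, Kif kinesins had 3 of 38 (Kif26b, Kif6 and Kif17) and Kif26a in the lower list, and myosins of classes 5 to 7 had Myo5b of 6 genes. These shares of 23.3, 18.8, 26.7, 11.4, 7.89 and 16.7% stand beside 12.1% of all protein-coding genes, with median gene lengths of 60.5, 63.6, 46.3, 28.1, 47.5 and 112 kb beside 17.2 kb, and were not tested.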
